A study of Mus musculus with 2 samples.

Results

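Among mouse embryonic stem cells taken at an early passage, 5590 cells carried RNA of the growth factor genes Fgf8, Fgf5 or both. These genes mark the epiblast once it has left the naive state. The cells also lay under set limits on mesendoderm and feeder fibroblast genes. They were chosen by measured values. A barcode of the early library (time 1) was selected where it held at least 18000 unique molecular identifiers (UMIs, counted RNA molecules), at least 1000 genes, at most 10% mitochondrial UMIs, at least 10 UMIs of Pou5f1 and at least 5 of Fgf8 and Fgf5 together. Cells with 15 or more summed UMIs of the mesendoderm genes T, Mixl1, Lhx1, Eomes and Mesp1, or 50 or more of the fibroblast genes Col1a1, Col1a2, Bgn, Mgp and S100a4, were left out. The selected cells were 23.1% (exact 95% binomial interval 22.5 to 23.6%) of the 24227 time 1 cells within all the other limits. These are out of 25962 time 1 cells that passed the UMI, gene and mitochondrial limits, and 54279 such cells over both libraries. The comparison cells were the 9165 within the same limits that had no UMI of Fgf8 or Fgf5, and a further 9472 held 1 to 4. The selection, its genes and its limits describe these cells and were not tested.

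All cells came from embryonic stem cell lines of the mouse strain C3H/HeSn-Paf/J, with 3 lines made independently from XX, 3 from XO and 3 from XY embryos. They were kept in serum and leukaemia inhibitory factor (LIF) on irradiated feeder fibroblasts, pooled, and captured once at an early passage (time 1) and once after 10 further passages (time 2), a period meant to let cells with abnormal chromosome numbers build up. No cell was tied to its line here, so a group may hold cells of any line or sex chromosome makeup, and each time point is 1 library without replicates. There is therefore no test of any difference below. Intervals cover counting error only, and called genes are those past a fixed size of difference.

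As background, the pluripotent epiblast passes from a naive state, held in culture by LIF, through a formative state to a primed one. FGF signalling through the MAP kinase cascade promotes this transition, in which naive factors such as Zfp42 and Esrrb are switched off while Pou5f1 stays on. Fgf5 is a classical mark of the post-implantation epiblast. Fgf8 is made in the epiblast and later in the primitive streak, where Wnt and Nodal signals induce mesoderm and endoderm. Serum and LIF cultures are known to be mixtures in which cells of more naive and more primed character coexist.

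Fgf8 lies on chromosome 19 at 45736798 to 45742915 (GRCm38, minus strand) and Fgf5 on chromosome 5 at 98254184 to 98277030 (plus strand). The start regions of Fgf5, one of the selecting genes, and of Sp5, a Wnt target, are shown because both genes were high in the selected cells. Each window has 300 bases, most of them before the annotated start, and is from RefSeq (GRCm38.p6), chr5:98253934-98254233 and chr2:70474673-70474972, both on the plus strand. Capitals mark CTTTGA, read on either strand (TCAAAG on the other), the core that TCF and LEF proteins of the Wnt pathway can bind.
Fgf5: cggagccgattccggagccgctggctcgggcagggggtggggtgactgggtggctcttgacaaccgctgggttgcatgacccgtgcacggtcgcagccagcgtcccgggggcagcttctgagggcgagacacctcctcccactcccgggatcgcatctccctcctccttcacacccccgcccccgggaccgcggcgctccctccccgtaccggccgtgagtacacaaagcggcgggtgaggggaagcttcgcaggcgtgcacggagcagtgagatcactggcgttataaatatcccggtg
Sp5: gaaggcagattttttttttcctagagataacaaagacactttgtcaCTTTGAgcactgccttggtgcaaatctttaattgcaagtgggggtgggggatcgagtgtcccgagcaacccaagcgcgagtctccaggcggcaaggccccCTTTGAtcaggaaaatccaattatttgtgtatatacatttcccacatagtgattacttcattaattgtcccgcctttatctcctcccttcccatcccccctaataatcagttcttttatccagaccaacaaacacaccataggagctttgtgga
Sp5 held 2 such matches and Fgf5 held 0. The letters occurred in 16.0% of the 32851 promoters of the same length in that table. The core bound by OTX proteins, TAATCC, which reads as GGATTA from the other strand, was in neither sequence and in 7.06% of all promoters.

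Free RNA was checked first, since droplets can hold RNA that their cell did not make. With every cell thinned to 10000 UMIs, an Fgf8 UMI was seen in 74.6% (73.4 to 75.7%) of the selected cells and in 5.88% (3.17 to 9.85%) of 221 fibroblast cells of the same library. For Fgf5 the shares were 48.6% (47.2 to 49.9%) and 2.71% (1.00 to 5.82%). The median depths were 50073 and 47708 UMIs, so the shares in selected cells lay far above those in a cell type that should lack these genes. The share in selected cells follows from how they were chosen. In sums over the 4449 barcodes under 1000 UMIs, which hold free RNA and fragments of cells, Fgf8 stood at 57.4 CPM (summed UMIs scaled to a total of 1000000) and Fgf5 at 16.1 CPM, below the 181 and 73.1 CPM of selected cells and above the 7.13 and 4.3 CPM of fibroblast cells. Comparison cells had a median of 45161 UMIs, and the median mitochondrial share was 2.22% in selected and 2.40% in comparison cells. The library held 145288 barcodes and 1735810403 UMIs (time 2: 52242 and 1843588321). Of the cells within the first limits, 194 barcodes occurred in both libraries, 42 of them among the selected cells.

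Inside the selection both genes were usually present together. The median cell held 7 Fgf8 and 3 Fgf5 UMIs, and the highest cell held 136 of both together. Of the 5590 cells, 84.3% (83.3 to 85.2%) had both genes, 686 had Fgf8 without Fgf5, and 194 had Fgf5 without Fgf8. Low values were common: 2418 cells had 5 to 9 UMIs of the pair, 1656 had 10 to 19, 1381 had 20 to 49 and 135 had 50 or more. The limit itself cut through a continuum. The 720 cells with exactly 5 UMIs had 115 CPM of Pou3f1 and 4517 CPM of Dppa5a. The 1053 cells with exactly 4, just outside, had 111 CPM of Pou3f1 and 4851 CPM of Dppa5a.

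The label of primed epiblast-like cells was set against marker lists, some of which hold selecting genes. All 5 primed markers other than the selecting genes (Otx2, Pou3f1, Dnmt3b, Zic2 and Sox3) were detected at 5 CPM or more, and their summed level was 494 CPM in selected against 206 CPM in comparison cells. Naive genes were also present, with Dppa5a at 3237 CPM. The 8 pluripotency markers other than Pou5f1, which the selection required, summed to 4791 CPM in selected against 9150 CPM in comparison cells. Dppa5a, with 7479 CPM in comparison cells, made up most of both sums. The other markers did not move alike: Tdgf1 was higher in selected cells and Sall4 differed little, as given below. Markers of other cell types were low. The 10 feeder fibroblast markers summed to 36.7 CPM in selected and 15.3 CPM in comparison cells. Of these, 5 were limited by the selection and set fibroblast cells apart, and the other 5 (Col3a1, Lum, Dcn, Postn and Thy1) summed to 5.52 CPM in selected, 3.24 in comparison and 905 CPM in fibroblast cells. The 5 mesendoderm markers, limited by the selection, summed to 31.7 against 6.25 CPM, and the 4 neural markers to 73.2 against 26.3 CPM, nearly all of it Nes. Primitive endoderm markers summed to 6.52 against 4.19 CPM, trophoblast markers to 21.6 against 42.6, and 2-cell-like markers to 3.55 CPM in comparison and less in selected cells. No marker was at 0 in the selected cells. Several marker sets thus moved with the selection at low levels, and their part in the differences below was not tested.

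Selected and comparison cells were compared over summed UMIs as the log2 ratio of CPM plus 1. A gene counted as measured where the mean of both groups was at least 5 CPM, and as higher or lower where CPM plus 1 differed at least 1.5 times, a log2 ratio of 0.58. Selecting genes and mitochondrial genes were left out. Of 9171 measured genes, 522 (5.69%) were higher and 593 (6.47%) lower, and the median over all of them was -0.0043. These 2 shares are the background for each gene list below. The selection split cells on genes of this same library, so the counts describe how the 2 groups differ.

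**Figure D1:**
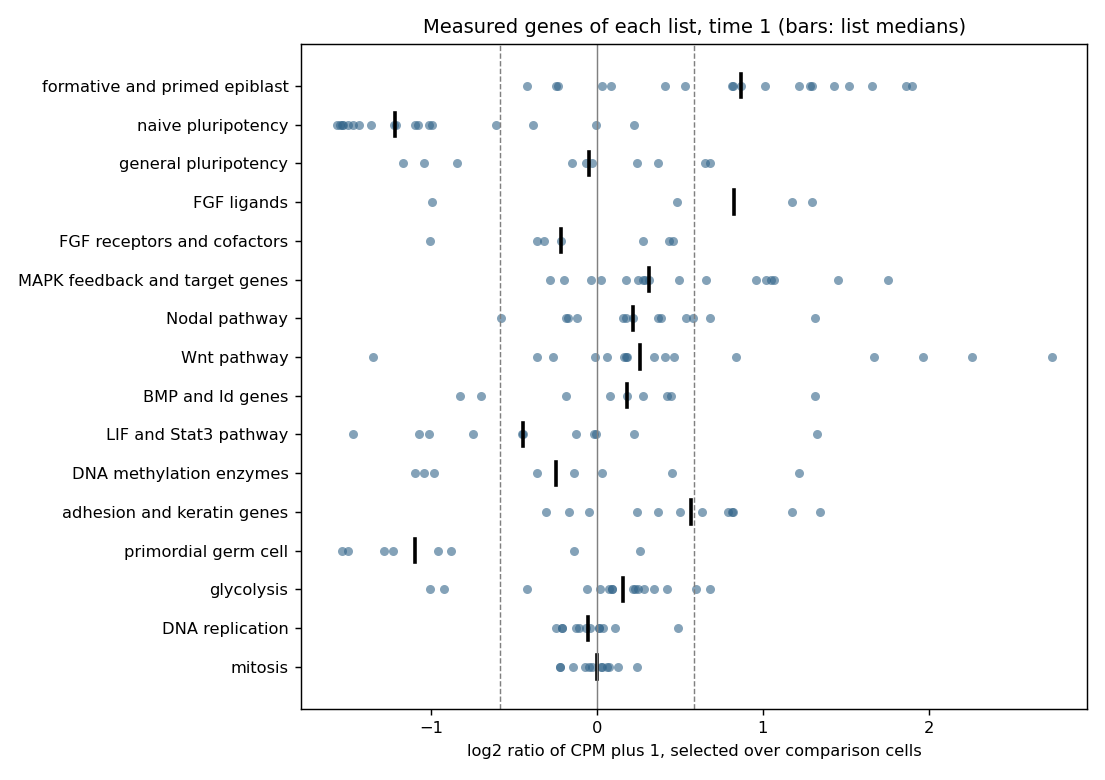
Each point is 1 measured gene of the list named on the vertical axis, placed by its log2 ratio of CPM plus 1 in selected over comparison cells at time 1. Black bars are list medians and dashed lines mark 1.5 times. The formative list has its median at 0.87 and the naive list at -1.21, while replication and mitosis genes lie near 0.

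Formative and primed epiblast genes were higher in most measured members. Of 19 measured members of the list of 20, 12 were higher, 0 were lower and the median log2 ratio was 0.87. Pou3f1, a POU factor of the formative epiblast, stood at 133 CPM (exact Poisson interval 132 to 134) in selected and 45.8 CPM (45.2 to 46.5) in comparison cells, a log2 ratio of 1.52. Dnmt3b, a de novo DNA methyltransferase, stood at 273 against 117 CPM (1.22). The SOX and ZIC factors were also higher. Sox3 had 16.8 against 3.79 CPM (1.90), and Sox11 had 97.0 CPM in selected cells (1.66). Sox4 differed by 1.29 and Zic2 by 1.43. Sall2 (1.86), Lin28b (1.01), Tead2 (0.87), Zic5 (0.82) and the claudin gene Cldn6 (0.82) completed the group together with Fgf15. Otx2, a homeobox factor that directs exit from the naive state, differed less, with 43.1 against 29.5 CPM (0.53), but was past the limit within each class by X-linked or Y-linked RNA given below. Lef1 (0.41), Foxd3 (0.08) and Dnmt3a (0.03) were within the limit. So were Tcf15 (-0.23) and Grhl2 (-0.25), with lower values in selected cells. Utf1, a chromatin factor of pluripotent cells, also had a lower value there, 414 against 555 CPM (-0.42).

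Naive pluripotency genes went the other way. Of 18 measured members of 20, 15 were lower and 0 higher, with a median of -1.21. Esrrb, an orphan nuclear receptor of the naive network, stood at 11.8 CPM (11.4 to 12.2) in selected and 35.9 CPM (35.4 to 36.5) in comparison cells, a log2 ratio of -1.53. Zfp42 had 24.0 against 63.2 CPM (-1.36), and Dppa3, a maternal factor also called Stella, had 110 against 322 CPM (-1.54). The Krüppel-like factors were unequal. Klf2 had 171 against 362 CPM (-1.08) and Klf4 had 31.8 against 65.1 CPM (-1.01). Klf5 had 84.2 against 129 CPM (-0.61). That difference was within the limit in 8 of 21 alternative settings, including each class by X-linked or Y-linked RNA given below. Tbx3 (-1.57), Nr5a2 (-1.55), Pecam1 (-1.50), Tfcp2l1 (-1.47), Tcl1 (-1.43), Nr0b1 (-1.22) and Tet2 (-1.09) were all lower. Nanog was not over all cells, though it was in the class with high X-linked RNA given below: it had 102 CPM in selected and 134 CPM in comparison cells (-0.39), and at 10000 UMIs it was seen in 62.3% and 61.9% of the cells. Spp1 had 400 CPM in both groups, and Stat3 had 19.2 against 16.3 CPM (0.22).

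Single cells showed the same pattern as sums. At 10000 UMIs, the median selected cell held UMIs of 7 of the 20 formative genes and 5 of the 20 naive genes, and the median comparison cell of 4 and 8. The interquartile ranges met at 6 formative genes, with 6 to 9 against 3 to 6. Selected cells were thus shifted, and the groups overlapped. The share of cells with a Pou3f1 UMI was 65.1% in selected, 28.4% in comparison and 13.1% in fibroblast cells. For Zfp42 the shares were 18.6%, 43.0% and 4.52%.

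General pluripotency genes divided. Of 10 measured, 2 were higher and 3 lower. Sox2, the partner of Pou5f1, had 138 against 285 CPM (-1.04), and the paired genes Dppa2 (-1.17) and Dppa4 (-0.84) were lower too. Tdgf1, the Nodal co-receptor Cripto, had 738 against 459 CPM (0.68), and the RNA-binding protein gene Lin28a had 121 against 76.6 CPM (0.65; 0.48 among X-low cells, a class defined below by X-linked RNA). Pou5f1, used only as a floor in both groups, stood at 703 and 692 CPM. Sall4 (-0.15), L1td1 (-0.03), Epcam (0.24) and Cdh1 (0.37) were within the limit.

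**Figure D2:**
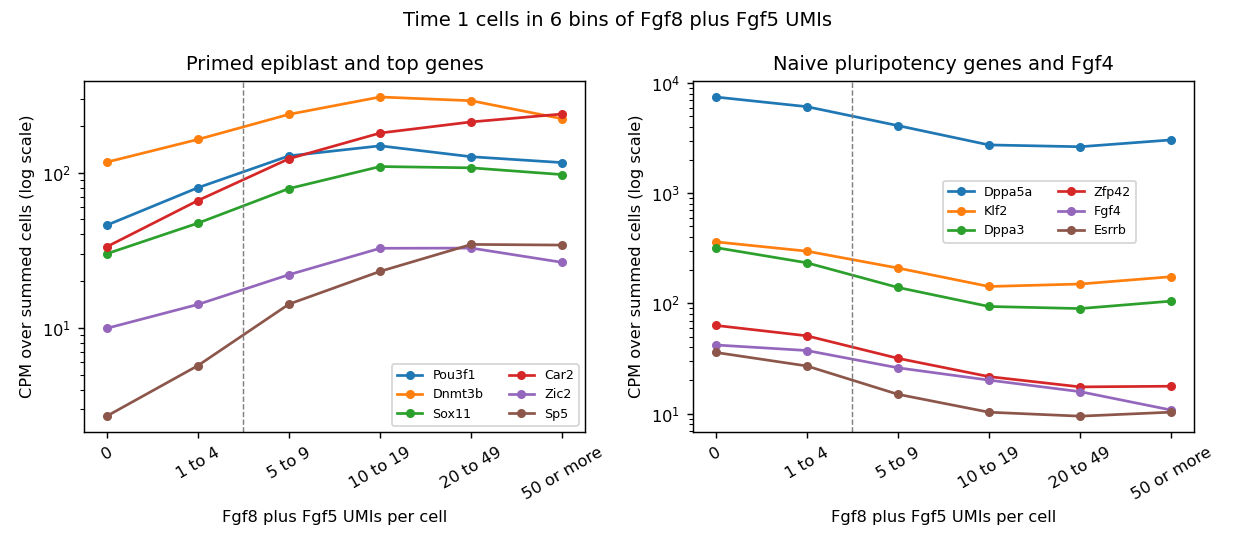
The horizontal axes give 6 bins of Fgf8 plus Fgf5 UMIs per cell and the vertical log axes the CPM of each gene over the summed cells of a bin. The dashed line marks the limit of 5 UMIs, to the right of which lie the selected cells. Car2 climbs from 33.3 to 239 CPM over all bins and Sp5 levels off near 34 CPM, while Pou3f1 and Dnmt3b are highest at 10 to 19 UMIs.

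Binned by Fgf8 plus Fgf5 UMIs, genes followed the selecting pair in different ways. The bins come from the selecting genes, so these levels are a description. Dnmt3b went from 117 CPM at 0 UMIs through 164, 237 and 307 to 291 and 222 CPM in the highest bin. Pou3f1 likewise reached its highest level, 149 CPM, at 10 to 19 UMIs and had 116 CPM at 50 or more. Otx2 ran from 29.5 to 44.8 CPM and back to 36.8. These 3 epiblast genes were thus not highest where Fgf8 and Fgf5 were highest. Other genes went on climbing. Car2, a carbonic anhydrase, had 33.3, 66.1, 123, 180, 212 and 239 CPM. T, the streak factor Brachyury, whose sum with other genes the selection capped, had 0.87 CPM at 0 and 22.7 CPM at 50 or more. The Wnt ligand gene Wnt3 went from 1.29 to 18.8 CPM over the same bins. Fgf4 went down at every step, from 42.0 to 10.8 CPM, as did Sox2, from 285 to 103 CPM. Nanog varied between 96.0 and 134 CPM without an order. The bins also differed in depth and makeup: median depth was 44821.5 UMIs at 5 to 9 and 72611 at 50 or more, and cells with 2 or more Y-linked UMIs made up 14.1% and 25.2%. The part of either was not tested.

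Across single selected cells, the genes most like the sum of Fgf8 and Fgf5 were found by Spearman correlation of counts thinned to 10000 UMIs, over 5590 cells and 5008 genes of at least 20 CPM. Npm3, a nuclear chaperone gene, came first at 0.38. Hmgb1 (0.25), Ldha (0.22), Nefl (0.22) and Trh (0.22) followed. The most negative were Dppa5a (-0.41), Hspb1 (-0.32), Mt1 (-0.31), Utf1 (-0.30) and Tmsb4x (-0.30). The median over all these genes was 0.0056. The cells share a library and sparse counts, and the values are weak.

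FGF ligand genes outside the selection did not move as one. Of 4 measured, Fgf15 (12.3 against 4.42 CPM, 1.29) and Fgf17 (12.1 against 4.82 CPM, 1.18) were higher. Both are secreted ligands, and Fgf17 is the close relative of Fgf8. Fgf4, the autocrine ligand of naive cells, was lower at 20.6 against 42.0 CPM (-0.99), and Fgf13, an intracellular relative, had 6.03 against 4.03 CPM (0.48). Receptors differed little. Of 7 measured receptor and cofactor genes only Fgfr2 passed the limit over all cells, at 7.60 against 16.3 CPM (-1.01). Fgfr1, the main receptor of the epiblast, had 46.9 against 38.5 CPM (0.28).

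Feedback and target genes of the MAP kinase cascade, which FGF receptors activate, were higher in part. Of 17 measured members of 19, 7 were higher and 0 lower, against 5.69% and 6.47% of all genes, with a median of 0.32. Dusp6, a phosphatase that acts back on ERK, had 48.1 against 23.2 CPM (1.02), and Spry2, a feedback inhibitor, had 55.7 against 26.3 CPM (1.05). Il17rd, an antagonist of FGF signalling, had 33.3 against 15.4 CPM (1.07). The immediate early genes gave the largest values. Fos had 159 against 46.5 CPM (1.76) and Egr1 had 147 against 52.9 CPM (1.45). Etv1 (0.96) and Myc (0.65) were also higher, Myc within the limit in each of the classes by X-linked and Y-linked RNA described below. Other feedback genes were not: Spry4 had 0.32, Dusp4 0.03, Etv5 -0.03 and Etv4 -0.28. The group was thus split, with Dusp6, Spry2 and Etv1 higher and Spry4, Etv4 and Etv5 within the limit. Fos, Egr1 and Myc respond to many stimuli, and of 10 measured stress response genes Atf3 (41.1 against 12.0 CPM, 1.70) and Jun (159 against 86.9 CPM, 0.87) were higher and Gadd45a (47.9 against 75.2 CPM, -0.64) lower. Their part in the MAP kinase values was not tested.

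Of 16 measured Wnt pathway genes, 5 were higher and 1 lower, with a median of 0.26. Sp5, whose start region is printed above, had 23.7 CPM (23.2 to 24.2) in selected and 2.70 CPM (2.55 to 2.85) in comparison cells, a log2 ratio of 2.74. Wnt3, the ligand that acts in streak formation, had 9.96 against 1.29 CPM (2.26), and Wnt8a had 10.7 against 2.00 CPM (1.96). The receptor gene Fzd2 had 30.2 against 8.81 CPM (1.67), and the feedback gene Axin2 had 8.17 against 4.13 CPM (0.84), though only 7.72 against 6.73 CPM (0.17) among Y-positive cells (those with 2 or more Y-linked UMIs), and it was within the limit with a pseudocount of 5 CPM. Wnt7b was lower at 3.06 against 9.33 CPM (-1.35). Core components differed little: Ctnnb1, the gene of beta-catenin, differed by 0.06, and Lrp6 by 0.16. An Sp5 UMI was seen in 17.9% of selected, 2.33% of comparison and 1.81% of fibroblast cells at 10000 UMIs, so most selected cells showed none at that depth.

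Among 13 measured Nodal pathway genes, 2 were higher and 0 lower. Tdgf1, given above, was one of them. Nodal itself had 66.2 against 43.9 CPM, a log2 ratio of 0.58 that falls just short of the limit. Its antagonists Lefty1 (0.38) and Lefty2 (-0.17) were within it. Of 9 measured BMP and Id genes, Id1 was higher (82.7 against 32.7 CPM, 1.31), and Id2 (-0.82) and Bmp4 (-0.70) were lower. Id2 was within the limit among X-low cells (-0.37) and Y-positive cells (-0.41), and Bmp4 among X-high cells (-0.28) and with a pseudocount of 5 CPM. Bmp4 was below the mean of 5 CPM among X-low and Y-positive cells. Of 11 measured genes of the LIF and Stat3 pathway 1 was higher and 4 lower. The receptor genes Lifr (5.16 against 12.0 CPM, -1.07) and Il6st (-0.75) were lower beside Klf4 and Tfcp2l1, Junb was higher (1.32), and the direct Stat3 target Socs3 had 13.9 CPM in both groups. Of 8 measured enzymes of DNA methylation and their cofactors, 1 was higher and 3 lower. Dnmt3b was the higher one, the cofactor gene Dnmt3l (88.2 against 183 CPM, -1.04) and the demethylating enzymes Tet1 (72.2 against 143 CPM, -0.98) and Tet2 (-1.09) were lower, and Dnmt1 (-0.36), Uhrf1 (-0.14), Dnmt3a (0.03) and another demethylating enzyme, Tet3 (0.46), were within the limit.

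Lineage genes outside the selection were mostly too low to be measured. Of 16 mesendoderm genes only Wnt3 reached a mean of 5 CPM. Foxa2, a factor of endoderm and the anterior streak, came just short of that mean and had 9.33 against 0.43 CPM (2.86). Among X-low cells alone it reached the mean, with a log2 ratio of 3.08. Foxa2 is named after its values were seen. Of 12 neural ectoderm genes only Nes was measured, and it was higher (67.7 against 24.0 CPM, 1.46). Primitive endoderm gave 3 measured genes (Lamb1 0.44, Col4a1 0.55, Sparc 0.08) with none past the limit. Trophoblast gave 2 measured genes, both lower (Ascl2 -1.09, Krt7 -0.85), and no 2-cell-like gene was measured. Primordial germ cell genes were lower in 6 of 8 measured, among them Tfap2c (30.7 against 88.7 CPM, -1.50), Nanos3 (-1.28), Dazl (-1.23) and Prdm1 (-0.88); Dppa3 is in this list and in the naive one. Of 5 measured fibroblast genes outside the selection, Tagln (342 against 128 CPM, 1.41) and Acta2 (19.9 against 7.15 CPM, 1.36) were higher, and Fn1 had 67.6 against 87.3 CPM (-0.36). Fibroblast cells held 4094 CPM of Tagln and 2180 CPM of Acta2. The 5 fibroblast markers given above, none of them in the selection, summed to 5.52 CPM in selected and 3.24 CPM in comparison cells. The part of feeder RNA in these values was not tested.

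Epithelial and cytoskeletal genes were often higher. Of 12 measured adhesion and keratin genes, 6 were higher and 0 lower, with a median of 0.57. The keratin pair Krt8 (202 against 78.9 CPM, 1.34) and Krt18 (169 against 74.3 CPM, 1.17) led, with Krt19 (0.82), Cldn6, Cldn7 (0.79) and Vim (0.64, but -0.039 among Y-positive cells and within the limit in 8 of 21 alternative settings). With the selection made at 10000 UMIs per cell, Krt18 (0.51) and Krt19 (0.30) were within the limit. Of 16 glycolysis genes 2 were higher, the glucose transporter gene Slc2a1 (0.68) and Ldha (0.60). Hk1 (13.6 against 28.3 CPM) and Pfkp (-0.92) were the 2 lower ones. Ldha was within the limit in 6 of 21 alternative settings, including X-low, X-high and Y-positive cells. Cell cycle lists did not differ past the limit: 0 of 12 DNA replication genes and 0 of 12 mitosis genes were called, with medians of -0.052 and -0.0012. Of 10 p53 targets 1, Eda2r (-0.64), was lower, and none was called among X-low, X-high or Y-positive cells. Of 88 ribosomal protein genes 2 were lower and 0 higher. Those 2 were Rpl39l (-1.18) and Rpl10l (-1.12), which are paralogues of Rpl39 and Rpl10.

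The largest differences of any gene with at least 20 CPM in a group lay mostly outside the lists. Nefl, a neurofilament gene, had 104 CPM in selected and 14.4 CPM in comparison cells (2.77), and Nefm, another, had 24.7 against 5.69 CPM (1.94). Sp5 came second. Fst, the gene of the activin antagonist follistatin, had 24.9 against 3.31 CPM (2.59), and 31.7% of fibroblast cells also held an Fst UMI at 10000 UMIs, against 19.5% of selected cells. Sema6a, a semaphorin gene, had 74.3 against 13.2 CPM (2.41), Car2 had 171 against 33.3 CPM (2.33), and Trh, the gene of a releasing hormone, had 435 against 110 CPM (1.98). Fndc3c1 (1.96) and Pkdcc (1.96) were also among the 10 highest. On the lower side Calcoco2 came first (23.8 against 81.5 CPM, -1.74). The X-linked homeobox genes Rhox6 (59.0 against 196 CPM, -1.72) and Rhox9 (58.2 against 193 CPM, -1.71) followed. They are close paralogues and may share reads. Among Y-positive cells alone their ratios were -0.34 and -0.32, within the limit. Mymx (-1.67), Gm49504 (-1.63), Mylpf (-1.59), Krt42 (-1.57), Khdc3 (-1.57) and Tbx3 (-1.57) were also among the 10 lowest.

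Cells with only Fgf8 and cells with only Fgf5 differed from each other. Their median depths also differed, at 45239.5 and 64670 UMIs, and both groups had a median of 7 UMIs of the pair. Of 9175 measured genes, 150 (1.63%) were at least 1.5 times higher in the 686 Fgf8-only cells and 188 (2.05%) lower, relative to the 194 Fgf5-only cells. Otx2 had 22.4 CPM (20.9 to 24.0) in Fgf8-only and 75.2 CPM (70.7 to 79.9) in Fgf5-only cells, a log2 ratio of -1.70, and 44.1 CPM in cells with both. Lef1 had 14.3 against 37.4 CPM (-1.33), and Dnmt3b 175 against 322 CPM (-0.88). Of 19 measured formative genes, 9 were lower with Fgf8 alone and 0 higher. Of 15 measured Wnt pathway genes, 4 were higher with Fgf8 alone (Wnt3, Sp5, Wnt8a and Fzd2) and 2 lower (Lef1 and Fzd7). Sp5 had 24.1 against 5.74 CPM (1.89), Wnt3 14.2 against 2.22 CPM (2.23) and Fgf17 14.6 against 3.52 CPM (1.78). T, one of the genes the selection capped, had 8.73 CPM (7.79 to 9.75) against 1.29 CPM (0.77 to 2.04), whereas Eomes, another of them, had 9.54 against 8.04 CPM. Acta2 (2.45), Pkdcc (1.61), Anxa3 (38.3 against 14.9 CPM), Krt8 (1.28) and Tagln (1.18) were also higher with Fgf8 alone. The largest difference towards Fgf5 was Xist, at 22.5 against 91.6 CPM (-1.98), with median X dosage ratios of 1.07 and 1.04. Of 17 measured naive genes, 3 were higher with Fgf8 alone and 0 lower. Nanog had 117 against 67.9 CPM (0.77), Klf4 38.3 against 22.0 CPM (0.77) and Dppa3 144 against 87.1 CPM (0.72), while Dppa5a had 4029 and 3812 CPM and Zfp42 29.8 and 29.6 CPM. These groups rest on the absence of a few UMIs.

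Because the pool mixed XX, XO and XY lines, sex chromosome measures were read in each cell. X dosage divides a cell's UMIs from 436 X-linked genes by those from 11909 autosomal genes and is set to 1 at the median of the cells with 2 or more Y-linked UMIs. Cells no more than 15% above that median were called X-low and cells at least 30% above it X-high. At 10000 UMIs, 71.6% (70.4 to 72.7%) of selected and 46.4% (45.3 to 47.4%) of comparison cells were X-low. X-high cells made up 14.9% (13.9 to 15.8%) and 46.6% (45.5 to 47.6%). Cells with 1 to 4 UMIs had 46.9% X-low and 37.0% X-high cells. Cells between the 2 dosage limits made up 13.6% of selected and 7.07% of comparison cells, and 16.1% of the cells with 1 to 4 UMIs. The selection was thus poorer in cells with high X dosage. Y-positive cells were 2.86% (2.44 to 3.33%) of selected and 1.48% (1.25 to 1.75%) of comparison cells at this depth, and 17.1% and 8.78% with all UMIs. Xist, the RNA that coats an inactive X chromosome, was detected in 11.2% (10.3 to 12.0%) and 19.4% (18.6 to 20.2%). Dosage calls could be moved by the genes that differ between the groups, so they were repeated without every gene past 1.5 times, giving 70.6% and 49.5% X-low cells.

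**Figure D3:**
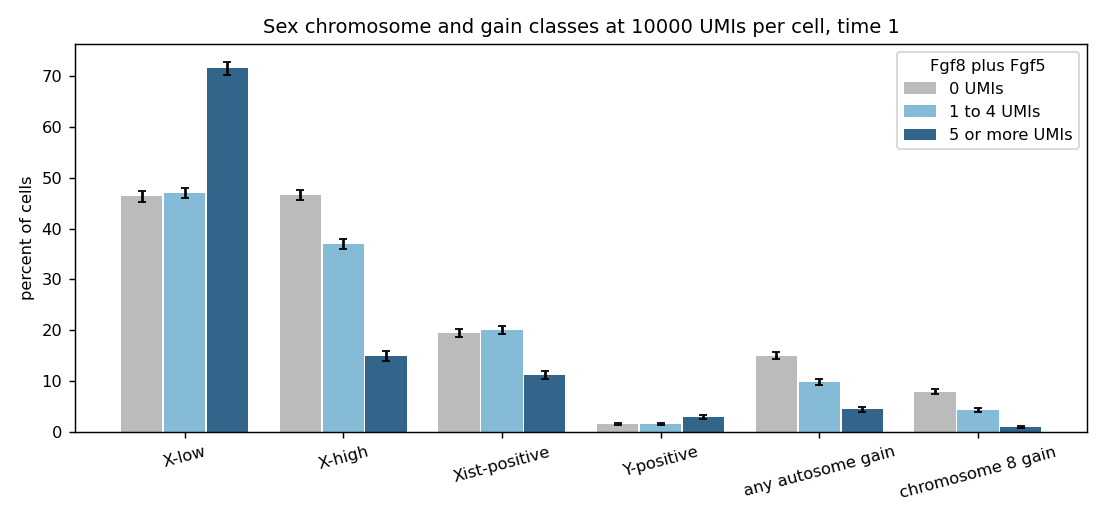
Bars give the percent of time 1 cells in each class at 10000 UMIs per cell, for cells with 0, 1 to 4, and 5 or more Fgf8 plus Fgf5 UMIs, with exact 95% binomial intervals for counting error. The tallest selected bar is X-low at 71.6%, and the selected bar for chromosome 8 gain is at 0.877%.

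Read the other way, 31.9% (31.1 to 32.7%) of X-low cells were selected and 9.14% (8.54 to 9.77%) of X-high cells. With the pair counted at 10000 UMIs and at least 3 required, the shares were 18% (17.3 to 18.6%) and 2.87% (2.53 to 3.24%). Median depths of the classes were 46091 and 48306 UMIs. Since line, chromosomal sex and state were not tied to cells, the makeup of the pool and the state of its cells cannot be told apart here. Of 329 measured X-linked genes, 27 were higher and 51 (15.5%) lower in selected cells, with a median of -0.17. Of 4 measured genes of X inactivation only Xist was lower (-0.74), and within classes it was within the limit (-0.01 among X-low, 0.09 among X-high and 0.13 among Y-positive cells). Among X-low cells alone 48 of 307 X-linked genes were higher and 19 lower, with a median of 0.13, where 6.11% of all 9120 measured genes were higher and 5.93% lower.

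The formative and naive lists kept their direction within each class. The Y-positive class overlaps the dosage classes, since every Y-positive cell is also X-low, X-high or between them. It is therefore not a separate set of cells. Among X-low cells 13 of 19 measured formative genes were higher and 1, Utf1, was lower, and 13 of 17 naive genes were lower, where 6.11% of all genes were higher and 5.93% lower. Among X-high cells 11 of 18 formative genes were higher and 13 of 19 naive genes lower, where 3.74% of all genes were higher and 1.78% lower. Among Y-positive cells 12 of 19 formative genes were higher and 13 of 17 naive genes lower, where the shares of all genes were 3.73% and 4.38%. Sizes differed. Pou3f1 had a log2 ratio of 1.19 in X-low and 2.01 in X-high cells. Several naive genes had smaller differences in X-high cells. Dppa5a had -1.47 in X-low and -0.61 in X-high cells, Dppa3 -2.07 and -0.89, and Zfp42 -1.71 and -0.67. Nanog went the other way, with 0.13 in X-low, 0.05 in Y-positive and -0.64 in X-high cells, where it was past the limit. Dnmt3l had -1.51 and -0.16, so that its difference was past 1.5 times in the first class and not in the second. Sox2 had -1.10 and -0.57. Of the naive genes called over all cells, Klf2 (-0.53), Klf5 (-0.45), Fgf4 (-0.44) and Nr0b1 (-0.577) were within the limit among X-high cells, as were the formative genes Zic5 (0.54) and Tead2 (0.51). So were Dppa2 (-0.45), Dppa4 (-0.29), Tdgf1 (0.43), Fgfr2 (-0.50), Il6st (-0.48), Tet1 (-0.49), Prdm1 (-0.23), Ascl2 (-0.44), Krt7 (-0.57), Gadd45a (-0.34) and Jun (0.54). Of the epithelial and glycolysis genes, Krt19 (0.53), Cldn7 (0.46), Vim (0.34), Slc2a1 (0.39), Ldha (0.36) and Pfkp (-0.51) were too. Among Y-positive cells Dusp6 (0.55), Cldn6 (0.55), Jun (0.55), Lin28a (0.30) and Krt7 (-0.42) were within the limit. Genes within the limit over all cells were past it in some classes. Otx2 had 0.85 among X-low, 0.67 among X-high and 0.68 among Y-positive cells. Lef1 (1.24) and Lamb1 (0.62) were past it among X-high cells, and Tet3 (0.79), Col4a1 (0.86), Nodal (0.59) and Utf1 (-0.66) among X-low cells. Gpc4, of the FGF receptor and cofactor list, was past it among X-low (0.83) and Y-positive cells (0.59). Nefl had 2.76 in X-low and 2.18 in X-high cells. Sp5 and Wnt3 had 2.57 and 2.21 in X-low cells, and neither reached the mean of 5 CPM in X-high cells, where Sp5 stood at 8.44 against 1.29 CPM and Wnt3 at 4.67 against 0.72 CPM. The differences between classes were not tested, and 4022 X-low but only 791 X-high cells were selected.

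Cells called with a gain of a whole autosome were rarer among selected cells, mostly through chromosome 8. For each chromosome, its share of a cell's UMIs from the 11909 autosomal genes used for X dosage was taken. It counted as gained where that share reached 1.3 times the median share over the 24227 time 1 cells. Any gain was called in 4.38% (3.86 to 4.95%) of selected, 9.83% (9.24 to 10.4%) of the cells with 1 to 4 UMIs and 15.0% (14.3 to 15.7%) of comparison cells. Chromosome 8, a frequent gain of mouse stem cell cultures, was gained in 0.877% (0.649 to 1.16%) against 7.88% (7.33 to 8.45%). Chromosome 1 was gained in 0.250% against 1.35%, and chromosome 11 in 1.11% against 2.2%. Some chromosomes differed little, such as chromosome 3 with 0.286% against 0.284% and chromosome 13 with 0.268% against 0.273%. Without the genes past 1.5 times, the chromosome 8 shares were 0.984% and 7.66%. Of 1225 cells called with a chromosome 8 gain from all UMIs, 47 were selected, 3.84% (2.83 to 5.07%), against 23.1% of all cells within the limits. Without the cells that had a gain, genes higher in selected cells numbered 530.

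After 10 further passages the same limits gave 1997 cells, 7.52% (7.20 to 7.84%) of 26568, against 23.1% at time 1. At 10000 UMIs with at least 3 of the pair the shares were 2.83% (2.63 to 3.03%) and 11.5% (11.1 to 11.9%). The later cells were deeper, with a median of 60507 UMIs. Fgf8 and Fgf5 occurred together in 84.5% of them, as in 84.3% at time 1. The pool itself had another makeup by then: X-low cells were 96.7% of selected and 86.8% of comparison cells. A chromosome 1 gain was called in 25.4% (23.5 to 27.4%) of selected and 60.4% (59.7 to 61.1%) of comparison cells. For chromosome 8 it was 38.3% (36.2 to 40.5%) and 45.6% (44.9 to 46.3%), for chromosome 14 2.60% and 20.3%, and for chromosome 19 4.06% and 1.74%. Time, makeup and capture are 1 library each and cannot be told apart.

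**Figure D4:**
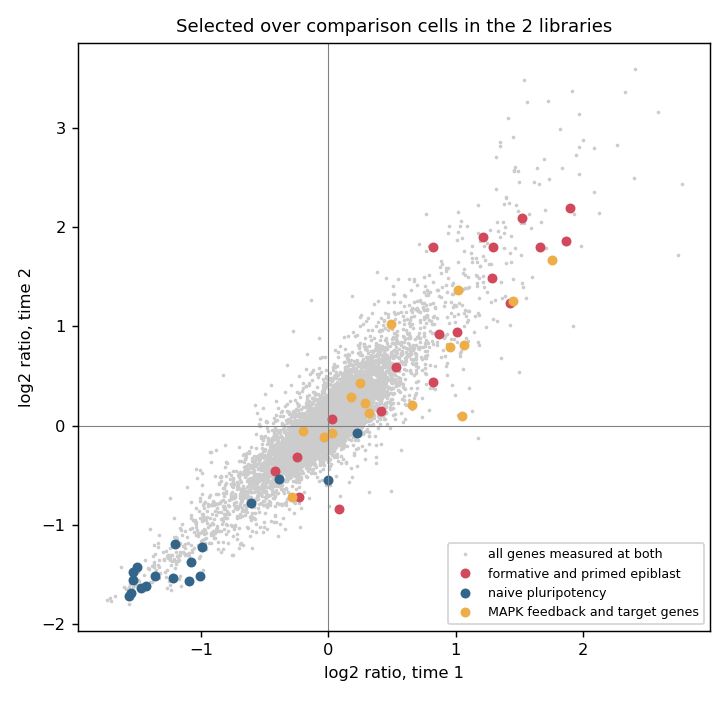
Each point is a gene measured in both libraries, placed by its log2 ratio of CPM plus 1 in selected over comparison cells at time 1 (horizontal) and time 2 (vertical). Coloured points are the formative, naive and MAP kinase lists. Naive genes with a time 1 ratio below -0.58 also lie below it at time 2, and Spry2, the MAP kinase gene at 1.05, lies at 0.10.

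Most called genes kept their direction at time 2. The cells of that library were again split by their own Fgf8 and Fgf5 UMIs under the same limits. Genes tied to the pair can thus recur through the split itself, and the counts are a description. There 726 of 8758 measured genes (8.29%) were higher and 611 (6.98%) lower. Of the 440 higher genes of time 1 measured at both, 439 had the same sign and 389 (88.4%) were called again, which is 54.9% of the 709 higher calls of time 2. Of 510 lower genes, 509 had the same sign and 413 (81.0%) were called again, 73.5% of 562. None was called in the opposite direction. The formative list gave 13 higher and 2 lower of 20, and the naive list 15 lower of 18. Several genes had a larger ratio at time 2. Car2 had 3.36, with 267 against 25.1 CPM, and Krt8 had 2.82, with 161 against 22.0 CPM. Tagln had 3.10, with 370 against 42.2 CPM. Others had a smaller one, such as Spry2 with 0.10 (18.1 against 16.9 CPM). Fgf17, which had 1.18 at time 1, changed sign. It had -0.12, with 16.6 CPM in selected and 18.1 CPM in comparison cells. Pou3f1 (2.09), Dnmt3b (1.90), Esrrb (-1.56) and Wnt3 (2.83) were past the limit at both times. The differences between the time points were not tested.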

How the data were processed

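For 2 pooled 10x libraries the authors deposited raw UMI counts (whole numbers, not normalised) of each gene in each barcode. Per the submitters' processing notes they used bcl2fastq 2.20.0.422 and Cell Ranger 6.1.2 with GRCm38. Capture used version 3.1 chemistry, per the labels' protocols. Of 32285 genes, 32235 matched GENCODE M21 by identifier.

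Cells were chosen by the limits given in the report. Counts were summed per cell group, scaled to CPM and compared as log2 ratios with a pseudocount of 1 CPM; with 1 library per group no test was possible, so intervals are exact (Poisson for sums, Clopper-Pearson for shares, 95%) and cover counting error only. Cells were thinned to 10000 UMIs for shares and classes. Python 3.11.15, scanpy 1.11.5, edgeR 4.0.16 and DESeq2 1.42.0 (the latter pair for scaling alternatives only) were used. Named genes were list members, preferring those past 1.5 times, and the 10 highest and 10 lowest ratios among genes of at least 20 CPM. The 5 genes most like the selecting pair were named too. Some genes that this rule names are not reported here. The members and lists were chosen with earlier results of these data known. Scrublet's automatic threshold marked 0 cells, so that caller did not work and doublets were kept. Free RNA was to be read in barcodes under 500 UMIs; there were 0, so barcodes under 1000 UMIs (4449 at time 1) and fibroblast cells served. The comparison script was tested on simulated data.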

Additional observations from a re-analysis of the deposited data

How the results depend on the processing

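The numbers of genes higher in selected cells (522) and of genes lower in selected cells (593) depended on the expression minimum: 180 and 248 at 20 CPM, 902 and 1021 without one. Fewer genes are tested in the first case and more in the second. A pseudocount of 5 CPM gave 389 lower genes. Among Y-positive cells 341 genes were higher, and among X-high cells 343 were higher and 163 lower; the cause was not tested. Formative genes numbered 7 at 20 CPM, where fewer members are measured. TMM and DESeq2 scaling moved the median log2 ratio of all genes by 0.023 and 0.026. The share of selected cells (23.1%) was 13.1% with at least 10 UMIs of the pair, 11.5% at 10000 UMIs, 25.6% from 30000 UMIs, 20.7% with a mesendoderm sum under 5 and 24.7% without gains. By class it was 35.1% of Y-positive, 31.9% of X-low and 9.14% of X-high cells. With at least 3 of the pair at 10000 UMIs these shares were 15.4%, 17.96% and 2.87%. The order of Y-positive and X-low cells was thus reversed. Their median depths were 54654 and 46091 UMIs, and the part of depth was not tested. With 2 alternatives chosen after seeing the data, the share of selected cells was 22.4% without the 10% of cells with the highest Scrublet scores and 22.1% up to 100000 UMIs. With all UMIs the difference in Y-positive cells between selected and comparison cells was 8.35 percentage points (1.38 at 10000 UMIs) and that in Xist-positive cells -5.82 (-8.26). Without genes past 1.5 times, an alternative also chosen later, X-low and X-high differences were 21.1 and -29.4 points (25.2 and -31.7). Of 79 named genes, 78 kept their sign in all 21 alternatives and 51 stayed past 1.5 times. Vim reversed among Y-positive cells (-0.039). Removal of marked doublets was not run, because none was marked. No paired analysis was possible because each time point is 1 library.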

Other observations

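Further groups were picked after their values were seen and are given as values. Some interferon-inducible and immune-related genes were higher in selected cells. Psmb8, a subunit of the immunoproteasome, had 72.6 against 18.6 CPM (log2 ratio 1.91), Isg15 had a ratio of 1.72, Gbp2 had 32.0 against 10.2 CPM (1.56) and the cytokine gene Ltb had 26.4 against 8.47 CPM (1.53). At time 2 their ratios were 3.37, 3.27, 3.26 and 3.48. Other genes of that kind did not follow: Bst2 had 284 against 231 CPM (0.30), Irf1 had 0.40 (0.72 among X-high cells), and Ifit1 was below 1 CPM in both groups.

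The X-linked homeobox genes Rhox1 (-1.19) and Rhox5 (136 against 328 CPM, -1.26) were lower beside Rhox6 and Rhox9. At time 2 Rhox5 and Rhox6 had -1.31 and -1.74. Within classes of time 1 these differences were smaller. Rhox1 had -0.16 in X-low, -0.56 in X-high and 0.30 in Y-positive cells, all within the limit of 1.5 times. Rhox5 had -1.04 in X-low cells but -0.51 in X-high and -0.55 in Y-positive cells. Rhox6 had only -0.34 in Y-positive cells, against -1.24 in X-low cells, a class that overlaps with the Y-positive one. Among imprinted genes Grb10 (1.92) and Meg3 (393 against 188 CPM, 1.06) were higher and H19 (58.8 against 128 CPM, -1.11) lower, while Peg3 had 217 against 248 CPM (-0.19). H19 was within the limit among X-low (-0.54) and Y-positive cells (-0.28) and had -0.65 among X-high cells and -0.62 at time 2. The membrane carbonic anhydrase gene Car4 (110 against 32.5 CPM, 1.73) was higher like Car2.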
